A study of Solanum lycopersicum with 2 samples.

Results

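The genes described here are 10 tomato loci for enzymes that make the volatiles of ripe fruit from fatty acids, amino acids and salicylate. They were chosen by locus identifier from a fixed list, and all 10 are among the 34725 identifiers of the table. The list was chosen with earlier results of these data known. The study sequenced RNA of red ripe fruit from wild type plants and from a line that overexpresses ALMT9, a member of a family of malate channels. Flowers were tagged as they opened, and fruit was picked 49 days later from 3 plants per genotype. Each genotype has 1 library, and whether fruit of the plants was pooled is not stated. The overexpression fruit, called OX below, comes from a single line, OX1. No source used here states the promoter of its introduced gene or the cells in which that promoter acts. Without replicates, no test was run and no p-value appears, and the comparisons describe 2 libraries rather than 2 genotypes.

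Tomato aroma is built from several short pathways. In the fatty acid branch a lipoxygenase adds oxygen to linoleic or linolenic acid, hydroperoxide lyase cuts the product into short aldehydes such as hexanal and hexenal, alcohol dehydrogenase reduces these to alcohols, and an alcohol acyltransferase can join alcohols to acetate as esters. In the amino acid branch, decarboxylases take phenylalanine towards phenylacetaldehyde and phenylethanol, and branched-chain aminotransferases interconvert leucine, isoleucine and valine with their keto acids. A methyltransferase turns salicylic acid into methyl salicylate, the scent of wintergreen.

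The names of the loci come from published assignments. Of the 41476 genes of RefSeq assembly SLM_r2.1, 0 carry an identifier of the table. For 9 of the 10 loci, RefSeq has a gene of that symbol or synonym on the chromosome that the identifier names; BCAT1 is the exception. Counting other volatile loci as well, 25 of 25 pairs of named loci on the same chromosome stand in the same order in RefSeq and in the identifier numbers. The loci are LOXA (Solyc08g014000.2), LOXB (Solyc01g099190.2) and LOXC (Solyc01g006540.2) for lipoxygenases, HPL (Solyc07g049690.2) for hydroperoxide lyase, and ADH2 (Solyc06g059740.2) for alcohol dehydrogenase. AAT1 (Solyc08g005770.2) is the alcohol acyltransferase, AADC1A (Solyc08g068680.2) and AADC2 (Solyc08g006740.2) are amino acid decarboxylases, BCAT1 (Solyc12g088220.1) is a branched-chain aminotransferase and SAMT (Solyc09g091550.2) is the salicylic acid methyltransferase. The identifiers place 4 of them on chromosome 8, 2 on chromosome 1 and 1 each on chromosomes 6, 7, 9 and 12.

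The library totals inferred from the RPKM values, as described under processing, were 19736832 reads (wild type) and 19252026 reads (OX). They are not recorded depths. The reads recovered for genes, which are minimums, add up to 86.2% of the total in the wild type and 85.3% in OX. The locus entered for ALMT9, Solyc06g072910.2, was at 0.0742 RPKM in wild type fruit and 20.5 RPKM in OX fruit, 277 times as much, from at least 1 and 270 reads (counting interval 49.3 to 10973). RPKM is the number of reads divided by gene model length and by library size. Loci entered as markers of ripe fruit were high in both libraries, 5 of 5 lying between 554 and 3979 RPKM in wild type fruit and between 657 and 2363 RPKM in OX fruit. They also differed between the libraries. The ratio of OX to wild type was 0.505 for E8, 0.670 for PSY1, 0.720 for E4, 1.19 for polygalacturonase and 3.65 for ACO1. Each had an interval that does not reach 1, which is common at this depth. Of the 17287 genes tested, those with a mean of at least 1 RPKM, 29.9% had an interval below 1 and 32.5% had one above 1. Only ACO1 was called at 2-fold, as higher, where 8.09% of the genes tested were. The part of these marker differences in the values below was not tested. Of 8 loci entered for photosynthesis genes of green tissue, 2 were listed at 0 in both libraries, and the sum of all 8 was 17.0 RPKM in wild type fruit and 22.5 RPKM in OX fruit. Most of this sum was 1 locus, Solyc03g034220, at 13.8 RPKM in wild type fruit and 18.8 RPKM in OX fruit. Only 3 of the 8 had a mean of at least 1 RPKM, 2 of them higher and 1 lower in OX fruit. Seed markers differed between the libraries. All 6 loci entered for oleosins, the oil body proteins of seeds, had a lower value in OX fruit, and none was at 0. Of these, 4 were lower by at least 2-fold, where 4.3% of the 17287 genes tested were. The other 2, Solyc03g112440 and Solyc08g078160, had counting intervals that span 1. The summed level of all 6 was 111 RPKM in wild type fruit and 30.9 RPKM in OX fruit. The part of seed RNA in the values below was not tested. In whole fruit, fewer cells of a type and less RNA per cell cannot be told apart.

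Of the 9 volatile loci above 0, 6 were lower and 3 were higher in OX fruit. Of the 17287 genes with a mean of at least 1 RPKM, 8439 were lower and 8848 were higher. Among the 1504 genes with a mean of at least 100 RPKM, 671 were lower and 833 were higher. ADH2, LOXB, AAT1, BCAT1, LOXC and HPL, each with a mean of at least 60 RPKM, stood below the wild type, by ratios from 0.402 (BCAT1) to 0.884 (HPL). LOXA, AADC1A and AADC2, with means above 0 and under 60 RPKM, stood above it, by ratios from 2.08 (LOXA) to 7.33 (AADC1A). SAMT was listed at 0 in both libraries. The level of 60 RPKM was placed between HPL and LOXA after the values were seen and serves only to describe them.

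**Figure D1:**
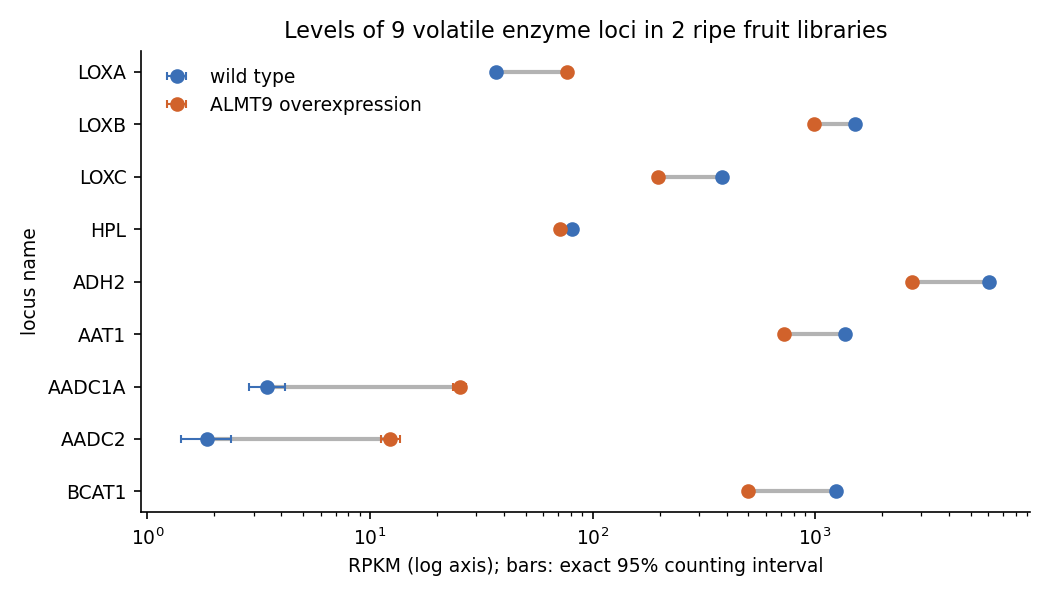
RPKM of the 9 loci above 0 in wild type fruit (blue) and the ALMT9 OX library (orange) on a log axis, with 1 library per genotype and bars for the exact 95% counting interval. ADH2 is the highest in both libraries, at 6039.7 and 2729 RPKM, and the decarboxylase loci AADC1A and AADC2 are the lowest in both.

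As a sum, the 10 loci stood at 10657 RPKM in wild type fruit and 5317 RPKM in OX fruit, a ratio of 0.499. They made up 1.28% of the summed RPKM of all genes in wild type fruit and 0.603% in OX fruit. ADH2 dominates this sum, with 56.7% of it in wild type fruit and 51.3% in OX fruit. Without ADH2 the sums were 4617 and 2588 RPKM, a ratio of 0.561.

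Differences are also given as log2((overexpression + 1)/(wild type + 1)), which draws the ratios of low genes towards 0, and a locus is called when it is at least 2-fold apart on this scale. A mean of at least 1 RPKM was required, which 9 of the 10 loci reached, each also at 1 RPKM or more in either library alone. Of these 9, 2 were called lower (ADH2 and BCAT1), where 4.3% of the 17287 genes tested were called lower. Another 3 were called higher (LOXA, AADC1A and AADC2), where 8.09% of all genes were. The other 4 lay within 2-fold. Since the list was chosen with earlier results of these data known, the shares of all genes serve as description only. At 1.5-fold, 5 of the 9 were lower and 3 higher, where 12.5% and 16.3% of all genes were. At 4-fold, 0 were lower and 2 were higher (AADC1A and AADC2), where 0.544% and 1.97% of all genes were. The median log2 ratio of the 9 was -0.62, against 0.016 for all genes tested. Intervals of the RPKM ratio are exact (Clopper-Pearson) 95% intervals from recovered reads, which cover counting error only and not differences between fruits or library preparations. By these, 6 ratios lay below 1, as did 29.9% of all genes tested, and 3 lay above 1, as did 32.5%. At this depth most genes differ by more than counting error, so these counts say little about the members.

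**Figure D2:**
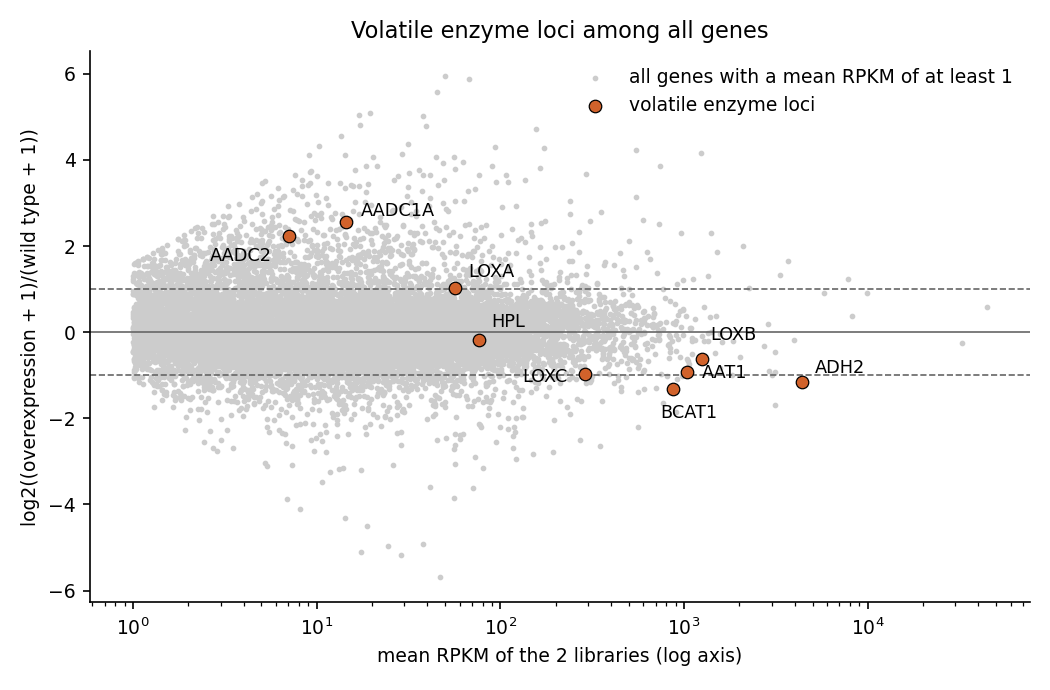
Each grey point is a gene with a mean of at least 1 RPKM, by its mean RPKM (log axis) and its log2 ratio of overexpression to wild type, with dashed lines at 2-fold. The volatile enzyme loci (orange) form a high, lower-lying group from LOXC to ADH2 and a scarce, higher pair, AADC1A and AADC2, with HPL near 0 and LOXA just above the upper line.

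Lipoxygenases, the entry point of the fatty acid branch, did not move alike. LOXC, the chloroplast lipoxygenase known in tomato to feed hexanal, hexenal and their alcohols, was at 382 RPKM in wild type fruit and 196 RPKM in OX fruit. LOXB, a fruit lipoxygenase that is not known to be needed for these aldehydes, was at 1515 RPKM in wild type fruit and 988 RPKM in OX fruit. LOXA, the third fruit lipoxygenase of the list, was at 36.9 RPKM in wild type fruit and 76.6 RPKM in OX fruit. LOXB and LOXC were thus lower in OX fruit and LOXA was higher, while LOXB and LOXC remained above LOXA in either library. The RPKM ratio was 0.513 for LOXC (interval 0.502 to 0.525), 0.652 for LOXB (0.646 to 0.659) and 2.08 for LOXA (1.97 to 2.19).

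On the log2 scale LOXC and LOXA lie next to the 2-fold line. LOXC, at -0.96, was short of it by a little, and it passed the line under 2 of 5 other scalings of the libraries, with values between -1.05 and -0.97. LOXA, at 1.03, was just past it and fell short under 4 of the 5 scalings, with values between 0.95 and 1.02. LOXB was at -0.62. The call of LOXA as 2-fold higher is therefore lost with small changes of scale. Its direction was the same in each setting run, which such settings could hardly change.

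Relative to each other, the lipoxygenases were closer in level in OX fruit. LOXB stood 41.1 times above LOXA in wild type fruit and 12.9 times above it in OX fruit. LOXC stood 10.4 times above LOXA in wild type fruit and 2.56 times in OX fruit. LOXB over LOXC moved the other way and less, from 3.97 to 5.04. The counting intervals of each of these 3 pairs do not overlap between the libraries, the nearest being LOXB over LOXC with 3.91 to 4.02 against 4.94 to 5.14. The share of other gene pairs that differ so was not taken. Among all genes tested, 29.9% had a ratio interval below 1 and 32.5% had one above 1. At this depth the lack of overlap thus says little about the lipoxygenases. Summed over the 3 loci, lipoxygenase RPKM was 1933 in wild type fruit and 1260.3 in OX fruit.

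HPL, whose enzyme cuts the hydroperoxide that LOXC makes, differed least of the 9 loci. It was at 80.7 RPKM in wild type fruit and 71.4 RPKM in OX fruit. The ratio was 0.884, with an interval of 0.839 to 0.931, so the libraries differed by more than counting error but by little. On the log2 scale HPL was at -0.18, and 35.4% of all genes tested lay lower. The level of LOXC relative to HPL was 4.73 in wild type fruit and 2.75 in OX fruit, with intervals of 4.56 to 4.91 and 2.63 to 2.87.

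ADH2, which in ripe tomato reduces aldehydes such as hexanal to their alcohols, was the most abundant of the loci in both libraries. It was at 6039.7 RPKM in wild type fruit, place 5 of all identifiers, and at 2729 RPKM in OX fruit, place 13. The ratio was 0.452, with an interval of 0.448 to 0.456 from at least 180236 and 79441 reads. On the log2 scale its difference was -1.15, with 2.96% of all genes tested lying lower. Among the 1504 genes with a mean of at least 100 RPKM, 4.79% were called lower, and 3.32% had a lower log2 ratio than ADH2. Relative to HPL, the step before it, ADH2 was at 74.8 in wild type fruit and 38.2 in OX fruit. Relative to LOXC it moved less, from 15.8 to 13.9, with intervals of 15.6 to 16.03 and 13.7 to 14.2 that do not overlap. The share of other gene pairs that differ so was not taken. Among all genes tested, 29.9% had a ratio interval below 1 and 32.5% had one above 1, so the lack of overlap says little about this pair.

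AAT1, the alcohol acyltransferase that makes acetate esters, followed ADH2 in direction and nearly in size. It was at 1359 RPKM in wild type fruit and 721 RPKM in OX fruit. The ratio was 0.531, with an interval of 0.523 to 0.539. Its log2 difference of -0.91 lay within 2-fold, and under the scaling to equal sums of RPKM it was -1.002 and past the line. AAT1 relative to ADH2 was 0.225 in wild type fruit and 0.264 in OX fruit.

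**Figure D3:**
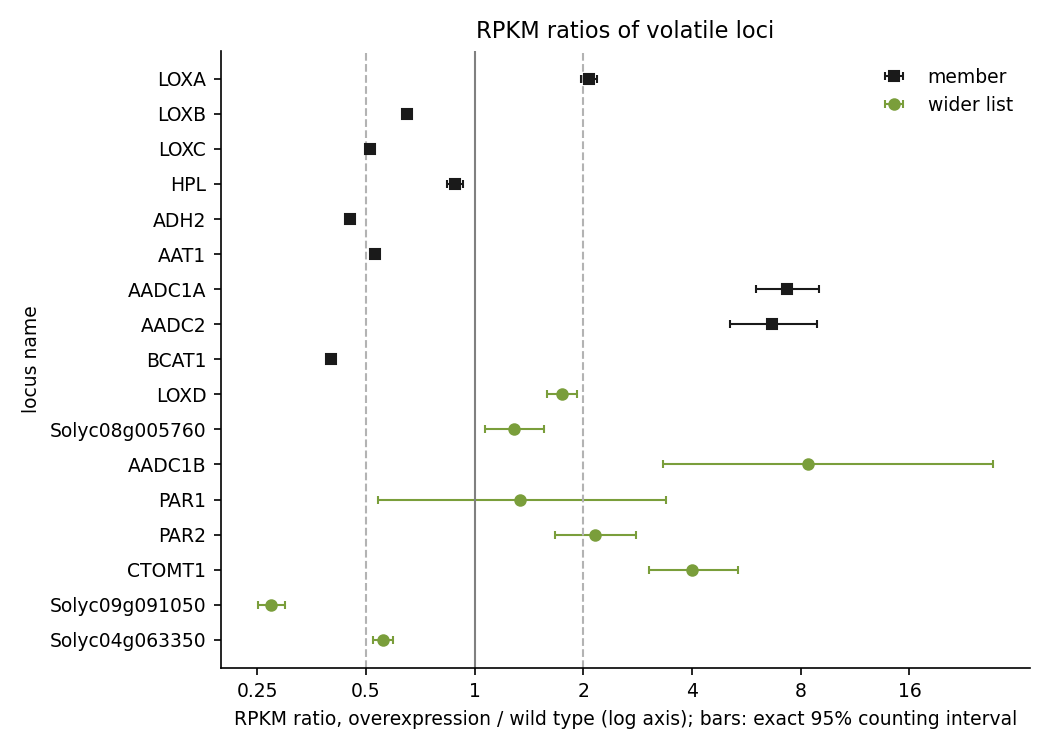
RPKM ratio of overexpression to wild type on a log axis for the 9 members above 0 (black squares) and 8 loci of a wider volatile list (green circles), with exact 95% counting intervals and dashed lines at 2-fold. BCAT1 and ADH2 lie left of the lower line, the decarboxylases AADC1A and AADC2 lie far right of the upper one, and the intervals of the abundant members are narrower than their symbols.

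In the amino acid branch the decarboxylases and the aminotransferase stood in opposite directions. AADC1A, which takes the carboxyl group from phenylalanine at the first step towards phenylethanol, was at 3.45 RPKM in wild type fruit and 25.3 RPKM in OX fruit. AADC2, a second enzyme of that reaction, was at 1.85 RPKM in wild type fruit and 12.3 RPKM in OX fruit. Both were low in wild type fruit library, at ranks 13687 and 15342 by level, and reached ranks 5754 and 9133 in OX fruit.

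The ratio was 7.33 for AADC1A (interval 6.02 to 9.00), from at least 114 and 815 reads. For AADC2 it was 6.66 (5.09 to 8.85), from at least 62 and 403 reads. Their log2 differences of 2.56 and 2.23 were the 147th and the 246th highest of the 17287 genes tested. AADC1A was 1.86 times as high as AADC2 in wild type fruit and 2.05 times in OX fruit, with overlapping intervals of 1.36 to 2.58 and 1.82 to 2.32, so a change in their proportion was not detectable at this depth. With a mean of at least 10 RPKM required, AADC2 drops out.

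A further decarboxylase locus of the family, entered as AADC1B (Solyc08g068610.2), was under the limit of 1 RPKM, at 0.147 RPKM in wild type fruit and 1.24 RPKM in OX fruit. Its ratio was 8.41, with a wide interval of 3.32 to 27.3 from at least 5 and 41 reads. No source used here states how reads that fit several copies were counted, so the values of the decarboxylase loci may share reads.

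BCAT1, a branched-chain amino acid aminotransferase, had the lowest ratio of the 9 loci above 0. It was at 1239 RPKM in wild type fruit and 498 RPKM in OX fruit. The ratio was 0.402, with an interval of 0.393 to 0.411. Its log2 difference was -1.31, the 355th lowest of the 17287 genes tested, with 2.05% of them lower. By level it went from place 43 of all identifiers to place 189. The direction of the amino acid branch by summed level, 1244 RPKM against 535 RPKM, is that of BCAT1, since the decarboxylases add little to it.

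SAMT, the enzyme of methyl salicylate, was listed at 0 in both libraries, and no difference can be given. If the 0 is a count, it allows up to 3 reads in each library, a limit that covers counting error only and is taken in 1 direction, unlike the intervals above. The locus before it in numerical order, Solyc09g091540, was also at 0 in both, and the locus after it, Solyc09g091560, was at 7.92 RPKM in wild type fruit and 10.7 RPKM in OX fruit.

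The order of levels per length was the same in both libraries but for 1 pair. In the wild type it ran ADH2, LOXB, AAT1, BCAT1, LOXC, HPL, LOXA, AADC1A, AADC2, and in OX fruit LOXA and HPL had changed places. HPL over LOXA was 2.19 in wild type fruit (interval 2.07 to 2.31) and 0.931 in OX fruit (0.887 to 0.977). The closest neighbours in wild type fruit were AAT1 and BCAT1, with a ratio of 1.10 and an interval of 1.08 to 1.11. LOXB over AAT1 was 1.11 there, with an interval of 1.10 to 1.13. No pair of neighbours in either order overlapped in the counting intervals of its levels. How these levels vary between fruits of a genotype is not known from 1 library each.

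**Figure D4:**
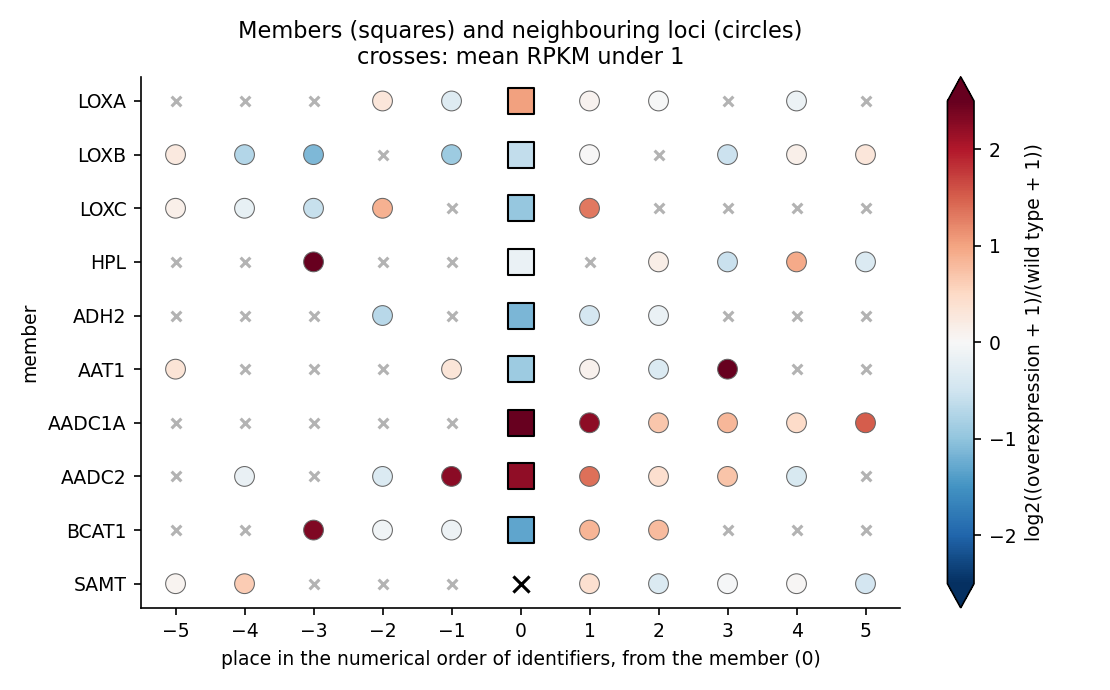
Log2 ratio of overexpression to wild type (colour, cut at 2.5 in both directions) of each member (square) and of the 5 identifiers before and after it in numerical order (circles), with crosses for a mean under 1 RPKM. Most neighbours are pale, and those of AADC1A on its right side are all above 0.

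Loci beside the members stood in both directions. Of 100 flanking identifiers, 5 on each side, 55 had a mean of at least 1 RPKM, of which 1 was called lower and 8 were called higher, where 4.3% and 8.09% of all genes were. Their median log2 ratio was 0.106. ADH2 had 3 such neighbours, all below 0 and none called, at -0.70 to -0.16. One of them, Solyc06g059720, is itself abundant, at 1502 RPKM in wild type fruit and 924 RPKM in OX fruit, and lies 2 identifiers before ADH2. BCAT1 lay between loci that were not lower in the same degree, with a median of 0.80 over 5 neighbours, the lowest at -0.12.

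AADC1A had higher loci on 1 side, after it, while the 5 identifiers before it were all under the limit of 1 RPKM. Its 5 measured neighbours had log2 ratios from 0.48 to 2.23, and 2 of them were called higher, where 8.09% of all genes were. The next identifier, Solyc08g068690, was at 51.6 RPKM in wild type fruit and 245 RPKM in OX fruit. AADC2 had a called neighbour on each side, while its 7 measured neighbours had log2 ratios from -0.41 to 2.25. Solyc08g006730 was at 7.81 RPKM in wild type fruit and 41.0 RPKM in OX fruit. Solyc08g006750 was at 0.870 RPKM in wild type fruit and 3.85 RPKM in OX fruit. Near HPL, Solyc07g049660, 3 identifiers before it, had the highest log2 ratio of all flanking loci, 4.08, at 5.36 RPKM in wild type fruit and 106 RPKM in OX fruit. Beside LOXB the only called locus was Solyc01g099160, at 61.5 RPKM in wild type fruit and 27.9 RPKM in OX fruit, in the direction of LOXB itself. Near LOXC, AAT1 and BCAT1, 1 called neighbour each stood higher in OX fruit, against the direction of the member. Solyc01g006550, beside LOXC, was at 0.606 RPKM in wild type fruit and 2.98 RPKM in OX fruit. Solyc08g005800, 3 identifiers after AAT1, was at 1.78 and 15.3 RPKM. Solyc12g088190, 3 identifiers before BCAT1, was at 0.138 and 4.74 RPKM. Whether such neighbours share reads or transcripts with the members was not tested.

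Other loci placed in volatile formation stood in both directions. Of 10 loci of this wider list, 9 are rows of the table and 6 had a mean of at least 1 RPKM. Of these 6, 1 was called lower and 1 higher, where 4.3% and 8.09% of all genes were, and 4 lay above 0. The median log2 ratio was 0.54, and it turned to -0.83 with a mean of at least 10 RPKM required, which LOXD, Solyc09g091050 and Solyc04g063350 reach. LOXD, a lipoxygenase tied to jasmonate synthesis, was at 11.4 RPKM in wild type fruit and 19.9 RPKM in OX fruit, a ratio of 1.75 (interval 1.59 to 1.92). LOXF (Solyc01g006560), which RefSeq places next but one to LOXC, was listed at 0 in both libraries.

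PAR1 and PAR2 are reductases that turn phenylacetaldehyde into phenylethanol, downstream of the decarboxylases. PAR2 was at 3.40 RPKM in wild type fruit and 7.33 RPKM in OX fruit, a ratio of 2.15 (interval 1.67 to 2.80) that stays within 2-fold on the log2 scale, at 0.92, and passes it with pseudocounts of 0.1 and 0.5, at 1.08 and 1.004. PAR1 was under 1 RPKM, at 0.374 and 0.498 RPKM, with an interval of the ratio from 0.540 to 3.40 that spans 1. CTOMT1, a catechol methyltransferase of the smoky volatile guaiacol, was the called higher locus, at 2.02 RPKM in wild type fruit and 8.09 RPKM in OX fruit, a ratio of 4.005 (3.03 to 5.36). Its log2 difference of 1.59 was 0.90 with a pseudocount of 5, which ends the call.

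The called lower locus was Solyc09g091050, at 46.2 RPKM in wild type fruit and 12.6 RPKM in OX fruit, a ratio of 0.274 (interval 0.251 to 0.298). Solyc04g063350 was at 71.7 RPKM in wild type fruit and 40.0 RPKM in OX fruit, a ratio of 0.558. Solyc08g005760, the identifier before AAT1, was at 7.65 RPKM in wild type fruit and 9.86 RPKM in OX fruit, a ratio of 1.29. These 3 loci were entered as volatile loci from published assignments that no table used here holds, so they are given by identifier only. The 2 more abundant ones were lower in OX fruit, and the third was higher.

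**Figure D5:**
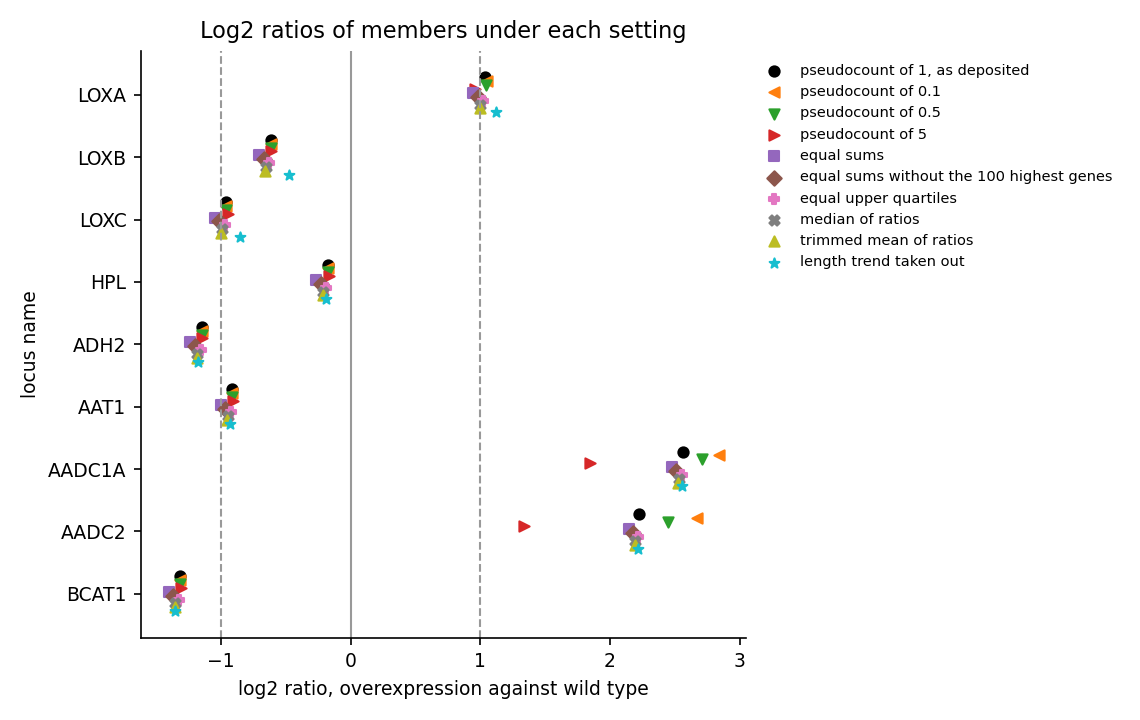
Log2 ratio of each of the 9 members above 0 under 10 settings, of which black is the value as reported, with dashed lines at 2-fold. No member changes sign, which settings of this kind could hardly bring about. LOXA, LOXC and AAT1 straddle a line, and the decarboxylases move most, with the pseudocount.

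Under 9 other settings of pseudocount, scaling and length, no member changed direction. These settings could hardly have changed one, so this gives no support to the directions. A pseudocount added to both libraries cannot change a sign. The 5 scalings had log2 factors from -0.089 to -0.011, while the member nearest 0, HPL, was at -0.18. With the length trend taken out HPL was at -0.19. ADH2 stayed between -1.24 and -1.14 and BCAT1 between -1.40 and -1.31, past 2-fold in each. AADC1A ranged from 1.84 to 2.84 and AADC2 from 1.34 to 2.67, the low ends with a pseudocount of 5. HPL ranged from -0.26 to -0.17.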

How the data were processed

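Total RNA of red ripe fruit was sequenced on the Illumina platform, 1 library per genotype. The authors deposited 1 table of RPKM values per gene identifier. TopHat, a spliced aligner, is named without a version in the submitters' processing notes; no source used here gives the counter, genome build, annotation or strand setting. Columns were assigned by sample title and groups by the genotype label.

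Whole reads were recovered from RPKM. The total of each library was the largest at which low values gave whole gene lengths for 1 read (96% of them in the wild type, 95% in the overexpression library). Both values were then whole reads for 24426 of 24429 genes above 0 at some length from 60 bp upwards. Taking the shortest makes read numbers minimums and intervals at their widest. The steps were tested on simulated data.

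Genes with a mean of at least 1 RPKM were compared with a pseudocount of 1 and called at 2-fold, with no test. The genes named are the members, a wider volatile list and the 5 identifiers on each side of a member. Members and lists were chosen with earlier results of these data known. A wider-list locus without a row, CXE1, was not analysed here. Alternatives covered pseudocount, filter, threshold, 5 scalings and a length trend. Python 3.11.15, numpy 2.4.6, scipy 1.17.1, pandas 2.3.3 and matplotlib 3.10.9 were used.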

Additional observations from a re-analysis of the deposited data

How the results depend on the processing

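The members called (2 lower, 3 higher) were 5 lower and 3 higher at 1.5-fold, and 0 lower and 2 higher at 4-fold. With sums of RPKM made equal 4 were lower, LOXC and AAT1 joining, and 2 higher. The median log2 ratio of members, -0.62, was -0.71 with equal sums, -0.67 with equal sums without the 100 highest genes, -0.65 with the median of ratios, -0.66 with the trimmed mean and -0.47 with the length trend taken out. Without a filter SAMT enters at 0 and the median is -0.40. With a mean of at least 10 RPKM AADC2 leaves and it is -0.76. The wider list had a median of 0.54, and -0.83 with a mean of at least 10 RPKM, since fewer loci are used. The 744 lower and 1398 higher genes of the whole table were 342 and 667 at a pseudocount of 5. They were 429 and 621 with a mean of at least 10 RPKM, 2163 and 2819 at 1.5-fold, and 94 and 341 at 4-fold. With a mean of at least 5 RPKM, 860 were higher. The LOXA call also ended with a pseudocount of 5, at 0.96. No paired analysis was possible because there are only 2 libraries, 1 for each group, which also leaves no replicate to drop. Of the wider list, CTOMT1 lost its call at a pseudocount of 5, and PAR2 gained one at 0.1 and 0.5. In reads not divided by length, 9 of 9 members kept their place in the wild type order and 7 of 9 in that of OX fruit. Depth leaves the ratios of PAR1 and AADC1B imprecise.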
